A study of Mus musculus with 10 samples.

Results

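The interferon-stimulated genes described here are Rsad2, Ifit1, Ifit2, Ifit3, Isg15 and Usp18, together with 3 transcription factors that act on such genes, Irf7, Irf1 and Stat2. They were measured in the liver after treatment with an antisense oligonucleotide (ASO) that targets miR-122, a microRNA of hepatocytes, and after treatment with saline. The genes were chosen by name with earlier results of these data known, so counts of them beside all genes are descriptions and not tests. Each was read from array probes that the annotation assigns to that gene alone. Of the 9 genes, 8 had such a probe, 1 probe each, out of 18012 genes with a tested single-gene probe. Ifit3 was represented only by a probe that the annotation shares with another gene, and it was not analysed here.

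The ASO group was 5 mice injected intraperitoneally with 50 mg/kg of a miR-122 ASO, 2 times a week for 4 weeks, and described in the labels as male C57Bl/6. The saline group was 5 mice injected with saline on the same schedule, for which the labels give neither sex nor strain. Mice of both groups were killed 2 days after dosing ended, and each of the 10 livers was hybridised to its own 1-colour array. The oligonucleotide carried 2'-O-methoxyethyl and phosphorothioate modifications, and no group received an oligonucleotide of another sequence, so the chemistry and the block of miR-122 cannot be told apart. The labels give no ages and do not state whether mice shared a cage or litter.

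Type I interferons, which many cells release on sensing viral nucleic acid, bind a receptor whose kinases phosphorylate STAT2. STAT2 acts with IRF9 in a complex that binds the interferon-stimulated response element (ISRE) in the promoters of target genes. Interferon-gamma acts mainly through the gamma-activated site (GAS). IRF7 amplifies the production of type I interferon, IRF1 drives part of the response to interferon-gamma, and USP18 shuts signalling down at the receptor. Hepatocytes, Kupffer cells and endothelial cells of the liver can all respond to interferon.

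Promoter sequences of 5 genes are shown because the genes differed in how their levels compared between the groups, while some carry the same ISRE letters. Each is the stretch of 160 bases that ends just before the annotated transcription start, from the RefSeq promoter table for GRCm38.p6. RefSeq windows matched 8 of the 9 genes by symbol, in 10 windows, because Irf1 and Ifit2 had more than a single start. Usp18 had no window there, so its promoter was not searched. Capitals mark a match to the ISRE core (GAAA, any 2 bases, GAAA) or its reverse complement (TTTC, any 2 bases, TTTC) in Rsad2, Ifit1 and Isg15. In Irf1 they mark a match to the GAS core (TTC, any 3 bases, GAA), which reads the same on both strands. The 3 matches in Isg15 overlap one another. The Irf7 stretch holds neither core.
Rsad2, chr12:26456453-26456612, minus strand: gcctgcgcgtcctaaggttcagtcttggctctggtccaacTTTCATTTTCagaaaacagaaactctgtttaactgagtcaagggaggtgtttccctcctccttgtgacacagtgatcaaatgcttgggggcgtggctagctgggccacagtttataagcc
Ifit1, chr19:34640729-34640888, plus strand: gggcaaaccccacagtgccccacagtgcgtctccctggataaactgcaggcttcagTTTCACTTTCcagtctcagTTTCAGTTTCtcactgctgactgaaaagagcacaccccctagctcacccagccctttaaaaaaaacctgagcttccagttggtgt
Isg15, chr4:156200819-156200978, minus strand: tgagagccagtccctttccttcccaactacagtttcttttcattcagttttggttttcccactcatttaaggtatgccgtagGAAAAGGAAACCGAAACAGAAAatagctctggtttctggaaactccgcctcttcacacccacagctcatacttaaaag
Irf1, chr11:53769854-53770013, plus strand: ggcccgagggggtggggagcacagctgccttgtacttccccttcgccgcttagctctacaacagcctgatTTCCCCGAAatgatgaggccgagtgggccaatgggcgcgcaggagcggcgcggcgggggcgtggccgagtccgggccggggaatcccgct
Irf7, chr7:141266425-141266584, minus strand: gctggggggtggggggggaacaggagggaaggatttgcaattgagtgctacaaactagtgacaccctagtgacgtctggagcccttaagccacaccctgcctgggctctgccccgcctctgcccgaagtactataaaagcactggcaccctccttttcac

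In whole windows, which run from 250 bases before to 50 bases after the start, the ISRE core was found in 5 of the genes (Rsad2, Ifit1, Ifit3, Isg15 and Stat2) and the GAS core in Irf1 and Ifit2. Across all 32851 windows of the table, 3.44% held the ISRE core and 8.30% the GAS core. A match describes letters only. The absence of a match says only that these letters were not in the window.

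**Figure D1:**
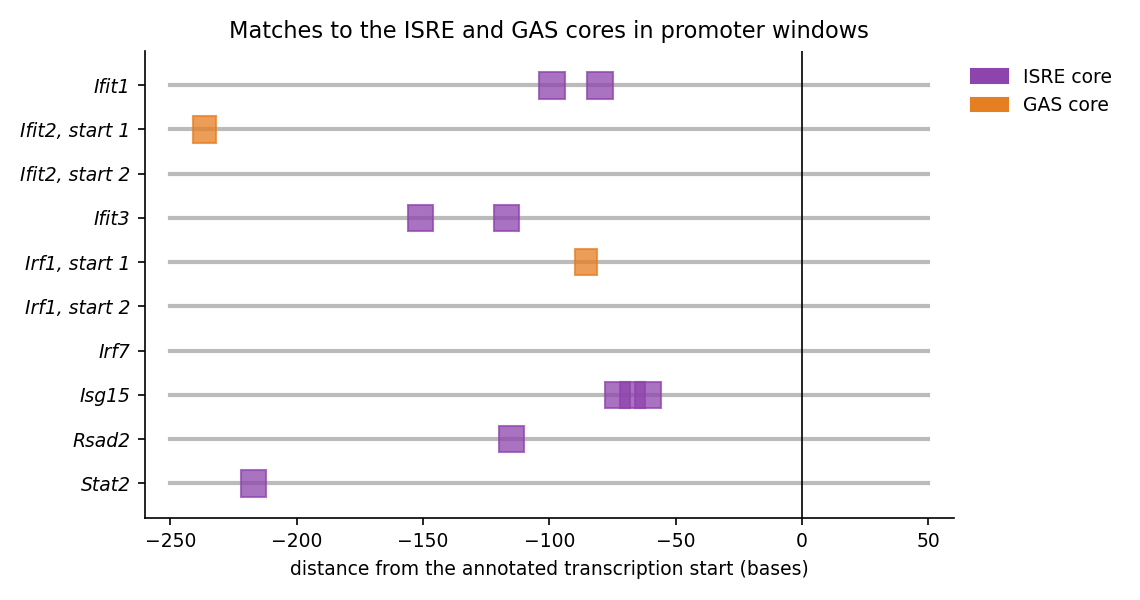
Positions of ISRE core (purple) and GAS core (orange) matches in the promoter windows of 8 genes, by distance in bases from the annotated transcription start (vertical line). Matches lie within 160 bases before the start in Rsad2, Ifit1, Ifit3, Isg15 and the first window of Irf1, farther upstream in Stat2 and Ifit2, and Irf7 shows none.

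No member passed the test over all probes, and the members did not share a direction. Levels are log2 intensities, differences are ASO minus saline on that scale, and an adjusted p is limma's with Benjamini-Hochberg adjustment over 36088 probes. With that adjustment 0.0637% of all probes were below 0.05 (0.0888% of genes), and 0 of the 8 members were. At an unadjusted p under 0.05, 2 members were lower in ASO livers (Rsad2 and Irf7), where 8.26% of all genes were lower at that p. A single member, Usp18, was higher, where 4.21% of all genes were. By sign alone 5 members were lower and 3 higher, where 55.0% of all genes were lower. The median difference was -0.14 over the 8 members and -0.04 over all genes.

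Array medians lay between 1.03 and 1.05 on the linear scale. Arrays of both groups reached maxima of 1198 to 2333 except saline replicate 1, with 542, while no member's intensity exceeded 51.0 on any array. Rsad2, Ifit2 and Isg15 had mean levels below that of the middle probe (log2 0.03). No detection call was used, so how far these 3 stood above background is unknown. Values under 0.192 on the linear scale were raised to it, a floor of -2.38 on the log2 scale, and this applied to 2 of the 80 member values.

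Among the effectors, Rsad2 had the largest difference. Rsad2 encodes viperin, a radical SAM enzyme that makes a chain-terminating nucleotide and limits the replication of many viruses. Its log2 intensities were -2.05, -2.30, -2.38, -0.91 and -1.58 in ASO replicates 1 to 5, against -0.54, -0.43, -0.80, -0.05 and -0.85 in saline replicates 1 to 5. Every ASO liver lay below every saline liver, with ASO replicate 4 closest to the saline values and ASO replicate 3 at the floor. Groups did not overlap in this direction in 1.72% of all genes.

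Rsad2 averaged -1.84 ± 0.61 in ASO livers and -0.53 ± 0.32 in saline livers (SD, n = 5 each). The difference was -1.31 ± 0.29 (SE), or 2.48-fold lower, with a 95% interval of -1.94 to -0.68. The limma adjusted p was 0.156 and the unadjusted p 0.000697. The whole 95% interval lay beyond a 1.5-fold decrease, but the call over all probes was not made. Adding 0.5 to every value in place of the floor gave -0.62, since a pseudocount shrinks differences of dim probes, and Irf7 then had -0.96.

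Ifit1 and Ifit2 encode proteins with tetratricopeptide repeats, and IFIT1 binds viral RNA that lacks host cap methylation. Ifit1 had log2 intensities of 2.53, 3.05, 2.41, 2.53 and 3.02 in ASO replicates 1 to 5, against 2.76, 3.04, 3.32, 3.27 and 2.51 in saline replicates 1 to 5. The groups overlapped, with saline replicate 5 among the lowest ASO values. The difference was -0.27 ± 0.21 (SE), with a 95% interval of -0.73 to 0.20 (limma adjusted p = 0.665). It was -0.14 under both quantile and cyclic loess normalization.

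Ifit2 had log2 intensities of -1.03, -1.50, -0.96, -0.59 and -0.48 in ASO replicates 1 to 5, against -1.01, -1.11, -1.17, -0.75 and -2.38 in saline replicates 1 to 5. The groups overlapped, and saline replicate 5, at the floor, stood apart from the rest of its group. The difference was 0.37 ± 0.31 (SE), with a 95% interval of -0.30 to 1.04 (limma adjusted p = 0.676). Without saline replicate 5 it was 0.10.

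Isg15 encodes a ubiquitin-like protein that is attached to other proteins during the interferon response. Its log2 intensities were -0.23, 0.12, -0.11, -0.14 and -0.04 in ASO replicates 1 to 5, against -0.31, -0.43, 0.07, 0.21 and 0.13 in saline replicates 1 to 5. All ASO values lay inside the saline range. The difference was -0.01 ± 0.17 (SE, limma adjusted p = 0.986). Its 95% interval, -0.39 to 0.37, was the narrowest of the 8 and did not reach 1.5-fold in either direction. The sign turned with array weights (0.0049) and without any of ASO replicates 1 and 4 or saline replicates 3, 4 and 5 (up to 0.054, without saline replicate 4).

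Usp18 encodes the protease that removes ISG15 from proteins and also blocks signalling at the type I receptor. It had log2 intensities of 3.37, 3.16, 3.59, 3.77 and 4.00 in ASO replicates 1 to 5, against 3.12, 3.27, 3.33, 2.69 and 2.88 in saline replicates 1 to 5. ASO replicate 2 lay within the saline range, and the other 4 ASO livers lay above all saline livers. Usp18 averaged 3.58 ± 0.33 in ASO livers and 3.06 ± 0.27 in saline livers (SD, n = 5 each). The difference was 0.52 ± 0.20 (SE), or 1.43-fold higher, with a 95% interval of 0.07 to 0.97. The limma adjusted p was 0.378 and the unadjusted p 0.0264. The unadjusted limma p was 0.0551 without ASO replicate 4, 0.0618 without ASO replicate 5, 0.0645 without saline replicate 4 and 0.0565 without saline replicate 5.

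Among the factors, Irf7 had the largest difference. Its log2 intensities were 3.96, 3.75, 3.80, 4.85 and 5.11 in ASO replicates 1 to 5, against 5.45, 5.67, 4.94, 5.27 and 5.03 in saline replicates 1 to 5. ASO replicates 1 to 4 lay below all saline livers, with replicate 4 close to them, while ASO replicate 5 lay inside the saline range. Irf7 averaged 4.29 ± 0.64 in ASO livers and 5.27 ± 0.30 in saline livers (SD, n = 5 each). The difference was -0.98 ± 0.29 (SE), or 1.97-fold lower, with a 95% interval of -1.62 to -0.34. The limma adjusted p was 0.266 and the unadjusted p 0.00598.

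Irf1 had log2 intensities of 3.06, 4.21, 1.86, 2.13 and 3.88 in ASO replicates 1 to 5, against 4.26, 3.95, 3.74, 2.99 and 3.24 in saline replicates 1 to 5. ASO replicates 3 and 4 lay below all saline livers and the other 3 lay inside the saline range. The SD was 1.03 in ASO livers, the widest of the 8 genes in that group, and 0.52 in saline livers (n = 5 each). The difference was -0.61 ± 0.45 (SE), with a 95% interval of -1.59 to 0.37 (limma adjusted p = 0.638). It was -0.31 without ASO replicate 3 and -0.38 without ASO replicate 4, and -0.90 without ASO replicate 2 and -0.82 without ASO replicate 5.

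Stat2 had log2 intensities of 1.67, 1.16, 1.32, 1.38 and 0.43 in ASO replicates 1 to 5, against 1.33, 0.70, 1.29, 0.90 and 1.17 in saline replicates 1 to 5. The ASO values reached both above and below the saline range. The difference was 0.11 ± 0.24 (SE), with a 95% interval of -0.41 to 0.63 (limma adjusted p = 0.893). It was 0.30 without ASO replicate 5 and -0.0056, with the sign turned, without ASO replicate 1.

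**Figure D2:**
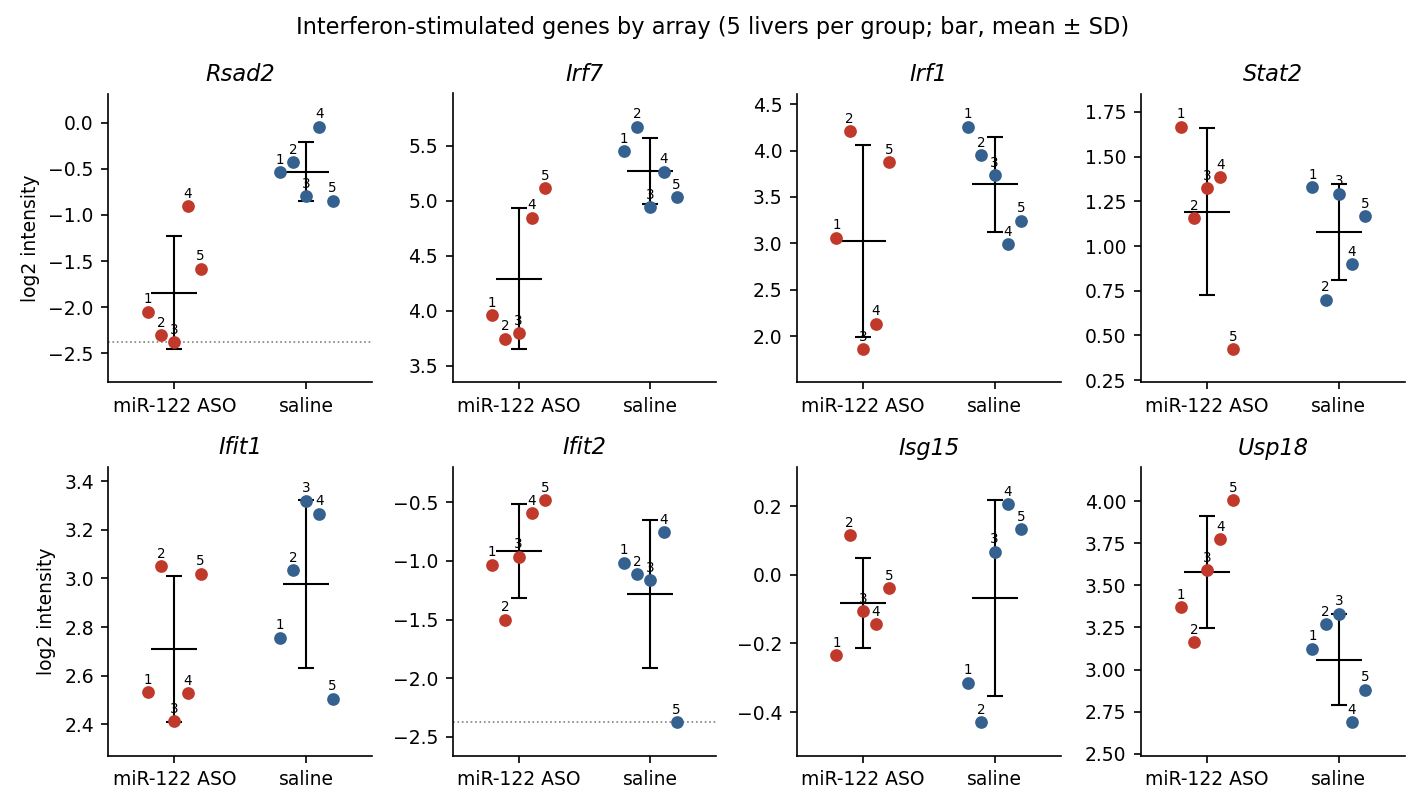
Log2 intensity of the 8 genes in each liver, ASO on the left and saline on the right of each panel, with replicate numbers beside the points and mean ± SD as bars (n = 5 each). The dotted line in the Rsad2 and Ifit2 panels is the floor at -2.38. The groups separate in Rsad2, while Irf7 and Usp18 overlap through ASO replicate 5 and ASO replicate 2.

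**Figure D3:**
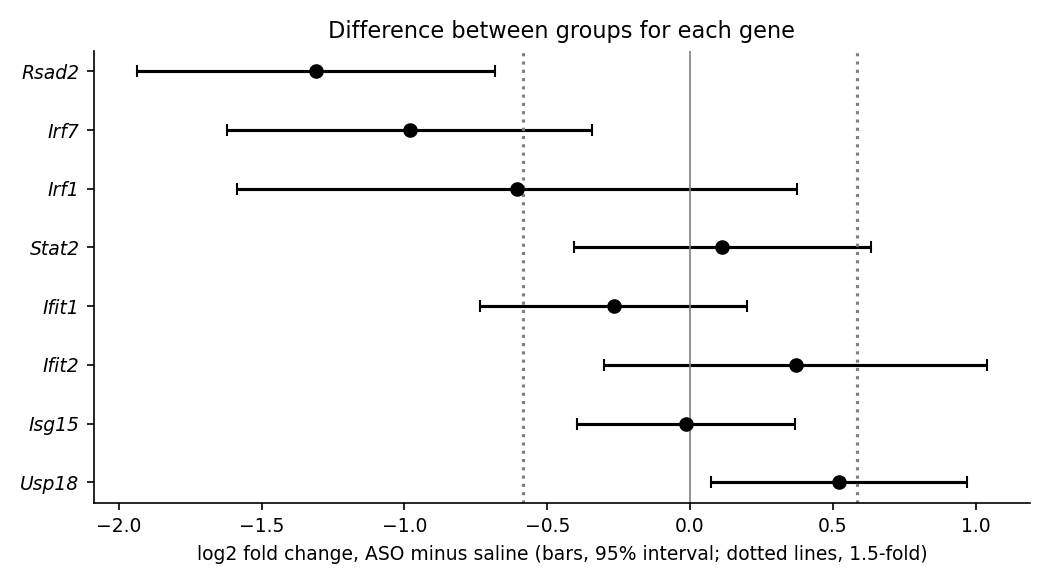
Difference between ASO and saline livers for the 8 genes on the log2 scale, with 95% intervals from limma. Dotted lines mark a 1.5-fold change in either direction, and the intervals of Rsad2, Irf7 and Usp18 do not include 0.

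Whether genes with the ISRE letters share a direction could not be decided here. The unadjusted limma p was 0.235 for Ifit1, 0.938 for Isg15 and 0.643 for Stat2, so the signs of these genes are not settled. The measured genes with an ISRE core in the window had differences of -1.31 (Rsad2), -0.27 (Ifit1), -0.01 (Isg15) and 0.11 (Stat2), and Irf7, without it, had -0.98. The genes with a GAS core had -0.61 (Irf1) and 0.37 (Ifit2).

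The 8 genes also varied mostly apart from one another inside the groups. With each gene taken as deviations from its group means over the 10 arrays, the median Pearson r of the 28 pairs was -0.01, with 14 pairs above 0 and a range of -0.61 to 0.78. The highest was between Rsad2 and Irf7 (r = 0.78, Spearman's rho = 0.84, and r = 0.96 without the 2 arrays farthest out in Rsad2). Both were highest within the ASO group in replicates 4 and 5. The lowest was between Irf7 and Stat2 (r = -0.61). Usp18, higher in ASO livers, had r = 0.66 with Irf7 inside the groups, and 0.40 without the 2 arrays farthest out in Irf7. These correlations are descriptions over arrays that share a processing, and they were not tested.

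**Figure D4:**
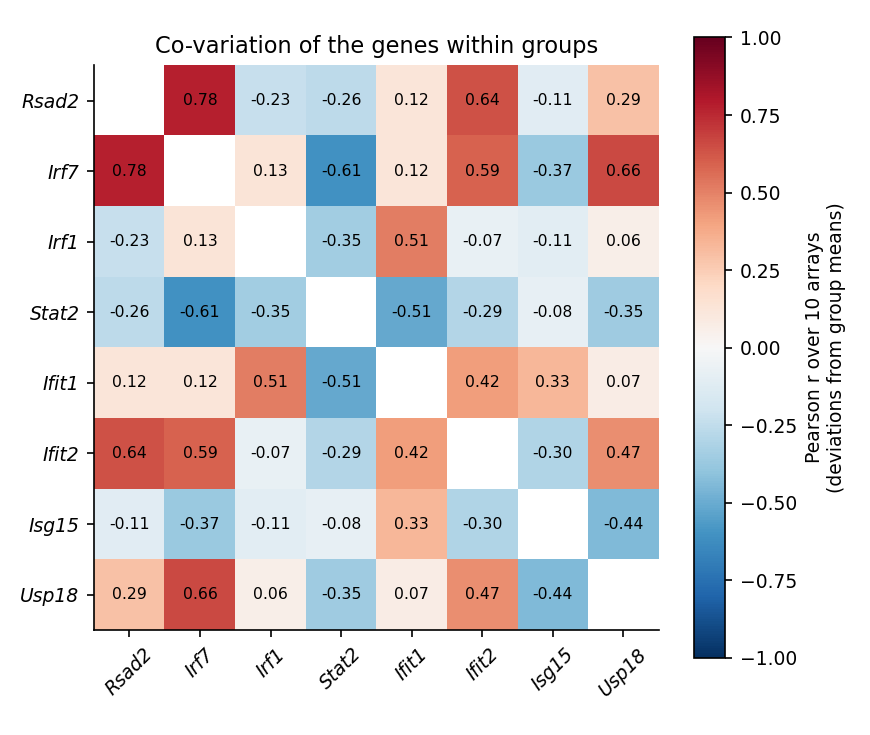
Pearson r between each pair of the 8 genes over 10 arrays, computed on deviations from the group means, on a scale of -1 to 1. Rsad2, Irf7, Ifit2 and Usp18 are positive with one another, from 0.29 to 0.78, and Stat2 is below 0 with every other gene. These values depend on single arrays. Ifit2 with Usp18 went from 0.47 to 0.08 without the 2 arrays farthest out in Ifit2. Rsad2 with Usp18 went from 0.29 to 0.69 without the 2 farthest out in Rsad2.

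The genes most like the members' mean were taken by the same deviations. They had the highest r with the mean standardised level of the 8 members, among 10075 genes outside the lists with levels above the median. That mean is not a profile the members share, since the median r between members was -0.01. Ubd, a ubiquitin-like modifier gene induced by interferon-gamma and tumour necrosis factor, came first (r = 0.95, rho = 0.98). Ubd was also lower in ASO livers, at -0.10 ± 0.59 against 1.38 ± 0.65 in saline livers (SD, n = 5 each), a difference of -1.48 ± 0.35 (SE, limma adjusted p = 0.186). It was followed by Zfp36 (r = 0.93), Hdac3 (0.91), Slc17a2 (0.91), Psmg4 (0.90), Yipf2 (0.89), Il18 (0.88) and Sparc (0.87).

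The differences of these 7 between the groups ran from -0.22 in Slc17a2 to 0.26 in Hdac3. A second Slc17a2 probe had -0.60, and Il18, at -0.18, had -0.40 without ASO replicate 5. Their rho ran from 0.82 to 0.90, and their r without the 2 arrays farthest out in the members' mean from 0.69 in Yipf2 to 0.92 in Sparc. A high r is a property of the choice, since these are the top 8 of all candidates. Near-zero differences changed sign without single arrays: Zfp36 to -0.063 without ASO replicate 5 and -0.0071 without saline replicate 5, Yipf2 to 0.046 without ASO replicate 3, and Sparc to between 0.042 and 0.063 without ASO replicates 1, 2 or 3 or saline replicate 3.

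Beyond the members, 110 other measured genes in 9 lists, also chosen with earlier results known, describe the pathway from ligand to effector. None of them passed over all probes, and the lowest limma adjusted p was 0.170. At an unadjusted p under 0.05, 15 (13.6%) were lower and 3 (2.73%) higher in ASO livers, beside 8.26% and 4.21% of all genes. The median difference was -0.10. Groups did not overlap in 3 of the 110 with ASO livers lower (Irf2bp2, Gvin1 and Cxcl10) and in 0 with ASO livers higher. Of all genes, 1.72% and 0.960% did so. Of these 110 genes, 80 lay above the median level, with 13 (16.2%) lower and 1 higher at that p, beside 11.3% and 3.53% of all genes above the median level. By sign 68 of the 110 were lower, where 62.6% of genes above the median level and 55.0% of all genes were. The count of 3 genes higher at an unadjusted p under 0.05 was 5 without ASO replicate 2 and 1 without ASO replicate 4.

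Interferon ligands were measured by 11 genes, 10 of them higher and 1 lower by sign, where 55.0% of all genes were lower. Their median was 0.09, and only 3 of the 11 lay above the median level, so most of these signs come from dim probes. Ifnab, annotated as an interferon-alpha gene, had -1.51 ± 0.50 in ASO livers and -2.14 ± 0.29 in saline livers (SD, n = 5 each), a difference of 0.63 ± 0.25 (SE, limma adjusted p = 0.387). The others with the lowest p were Ifnz (0.35), Ifnl3 (0.31) and Ifna9 (0.23). Ifng, Ifna1, Ifna11, Ifnab and Ifne were at the floor on at least 1 array. Interferon-alpha genes are near-identical copies, so their probes may read one another's transcripts.

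Receptors and their kinases had 8 measured genes and a median of -0.06. Ifngr1, a chain of the interferon-gamma receptor, had a difference of -0.56 ± 0.23 (SE, limma adjusted p = 0.406). Ifnar1 and Ifnar2, the chains of the type I receptor, had 0.17 and -0.30, and Jak2 had 0.06 (-0.0075 without ASO replicate 1). A second Ifnar1 probe had -0.72 ± 0.41 (SE), so the probes of this gene disagree in sign.

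Of 7 other STAT and IRF genes, 2 were lower at an unadjusted p under 0.05 and none was higher. Of all genes, 8.26% were lower and 4.21% higher at that p. Irf9, the DNA-binding partner of STAT2, had 1.13 ± 0.41 in ASO livers and 1.74 ± 0.28 in saline livers (SD, n = 5 each), a difference of -0.61 ± 0.22 (SE, limma adjusted p = 0.353). Stat3, a factor of interleukin-6 signalling, had -0.75 ± 0.28 (SE, limma adjusted p = 0.358), and its other probes had -0.47 and -0.23. Irf8 had 0.16 and Irf2 -0.20.

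Among 9 genes that restrain the pathway, Irf2bp2, a co-repressor that binds IRF2, had 0.43 ± 0.62 in ASO livers and 1.47 ± 0.31 in saline livers (SD, n = 5 each). Its difference was -1.04 ± 0.29 (SE, limma adjusted p = 0.244), and the groups did not overlap, as for 1.72% of all genes in this direction. Ptpn1, Pias1 and Pias4 had -0.40, 0.33 and 0.29, the last from 5 ASO and 3 saline livers because 2 values were missing. Other Pias4 probes had 0.02 and 0.06. The median of this list was -0.11.

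The ISG15 conjugation machinery, which does the reverse of USP18, had 5 measured genes, none with an unadjusted p under 0.05. Ube2l6, the conjugating enzyme for ISG15, had -0.87 ± 0.45 (SE, limma adjusted p = 0.494). Arih1, Trim25 and Herc6 had -0.41, 0.19 and -0.23. A second Trim25 probe had -0.23, so the sign of Trim25 depends on the probe.

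Antiviral effectors were the longest list, with 42 measured genes, 25 lower and 17 higher by sign, and a median of -0.09. By sign 55.0% of all genes were lower. At an unadjusted p under 0.05, 4 were lower and 2 higher, where 8.26% and 4.21% of all genes were. The lower ones were Parp14 (-0.74 ± 0.25), Zc3hav1 (-0.75 ± 0.26), Adar (-0.37 ± 0.16) and Ifi205 (-0.52 ± 0.23), given with SE. Parp14 encodes an ADP-ribosyltransferase, Zc3hav1 the zinc-finger antiviral protein and Adar an RNA-editing enzyme. The higher ones were Oas1a, a synthase of 2'-5' oligoadenylates (0.92 ± 0.34, SE), and Lgals3bp, a secreted glycoprotein (0.82 ± 0.34, SE). Limma adjusted p-values of these 6 ran from 0.298 to 0.427. Other Parp14 probes had 0.06 and 0.58, against -0.74 at the brightest probe. Oas1a lay below the median level. Its log2 intensities were -1.96 and -2.38, the floor, in saline replicates 1 and 4. They ran from -0.87 to -0.62 in the other saline livers and from -0.76 to -0.13 in ASO livers. Its difference was 0.66 without saline replicate 4 and 0.47 with the pseudocount of 0.5. Oas1a belongs to a cluster of close copies, so its probe may read others.

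GTPases induced by interferon-gamma had a median of -0.25. By sign 9 of 11 measured genes were lower, beside 55.0% of all genes and 62.6% of those above the median level. Gvin1, a very large inducible GTPase gene, had log2 intensities of 2.07, 1.02, 2.48, 2.39 and 2.47 in ASO replicates 1 to 5, against 3.61, 3.50, 3.63, 3.36 and 2.76 in saline replicates 1 to 5. Every ASO liver lay below every saline liver, as for 1.72% of all genes, and ASO replicate 2 was the lowest. The difference was -1.29 ± 0.30 (SE, limma adjusted p = 0.170). Gbp2, a guanylate-binding protein gene, had -0.66 ± 0.29 (SE), with 3 arrays at the floor. Irgm1 and Gbp5 had -0.61 and -0.51 at unadjusted p-values of 0.0632 and 0.196 in limma.

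Genes that process antigen for MHC class I had a median of -0.28. By sign 9 of 11 were lower, beside 55.0% of all genes and 62.6% of those above the median level. Tap2 and Tap1, which form the peptide transporter, had -0.81 ± 0.23 and -0.56 ± 0.22 (SE, limma adjusted p = 0.246 and 0.381). Erap1, a peptide-trimming protease, had -0.57 ± 0.18 (SE, limma adjusted p = 0.290) at its bright probe and 0.01 at another. Psme1, a proteasome activator subunit, had -0.63 ± 0.41 (SE) and 0.01 at another probe. The first was -0.25 without saline replicate 2, its highest array, and -0.90 without saline replicate 5.

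Chemokines induced by interferon had 6 measured genes. Cxcl10 had log2 intensities of 0.45, -2.30, -0.34, 0.55 and 1.10 in ASO replicates 1 to 5, against 1.48, 1.88, 1.94, 1.41 and 1.14 in saline replicates 1 to 5, and Cxcl9 averaged 1.42 ± 0.51 in ASO livers and 2.49 ± 0.49 in saline livers (SD, n = 5 each). Cxcl10 had a difference of -1.68 ± 0.52 (SE, limma adjusted p = 0.279), and -1.13 without ASO replicate 2, its lowest array. Its groups did not overlap, as for 1.72% of all genes in this direction. The gap was narrow, between 1.10 in ASO replicate 5 and 1.14 in saline replicate 5. Cxcl9 had -1.07 ± 0.29 (SE, limma adjusted p = 0.238). Both chemokines recruit T cells, and for both ASO replicate 5 was the highest of its group, as for Irf7. Ccl5 had -0.37 and Cxcl11 0.30.

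**Figure D5:**
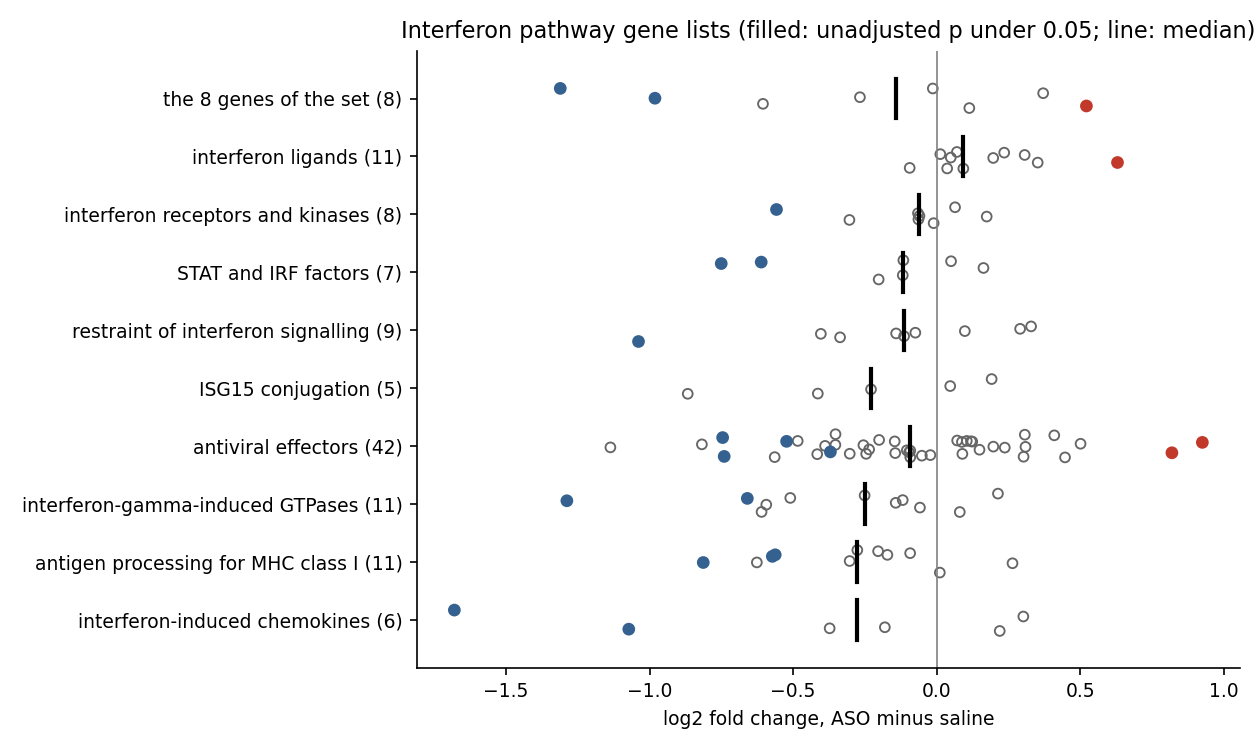
Difference between ASO and saline livers, on the log2 scale, of every measured gene of the set and of the 9 pathway lists, with the number of genes in brackets. Filled points have an unadjusted limma p under 0.05 (blue lower, red higher), vertical lines are list medians, and no point passed the adjusted threshold. Medians run from -0.28 in chemokines and MHC class I processing to 0.09 in ligands.

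In whole liver, fewer cells of a type and less RNA per cell cannot be told apart, so markers of cells that could carry these transcripts are given beside them. By sign 55.0% of all genes were lower, and this share applies beside each marker count. At an unadjusted limma p under 0.05, 8.26% of all genes were lower and 4.21% higher. At that p, 1 marker was lower in each of the plasmacytoid dendritic cell, B cell, and T and NK cell lists. In the other lists 2 neutrophil markers and 1 endothelial marker were higher, and no hepatocyte marker reached that p. Of 10 Kupffer cell markers, 6 were lower by sign and none had an unadjusted p under 0.05. Their summed intensity ranged from 80.1 to 368 in ASO livers and from 172 to 380 in saline livers. None of the 10 was at the floor on any array. The 3 brightest, C1qb, C1qc and Cd5l, had -0.31 ± 0.60, -0.33 ± 0.48 and -0.33 ± 0.52 (SE), and without ASO replicate 2 they had 0.32, 0.064 and 0.036. Without ASO replicate 2 Rsad2 had -1.20, Irf7 -0.84 and Usp18 0.63.

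Of 6 genes marking plasmacytoid dendritic cells, a main source of type I interferon, 3 were lower by sign, with sums of 16.7 to 28.2 in ASO livers and 18.7 to 26.4 in saline livers. Siglech, the defining marker, was at the floor on 3 of 10 arrays and had a difference of -0.11 ± 0.27 (SE). Cd209d had -0.60 ± 0.26 (SE, limma adjusted p = 0.426). Tcf4, which many cells express, had -0.06 (0.10 without ASO replicate 2, 0.037 without ASO replicate 3, 0.023 without ASO replicate 4 and 0.095 without saline replicate 1), and Cox6a2 had 0.04 (-0.053, -0.043 and -0.011 without ASO replicate 1, ASO replicate 3 and saline replicate 3).

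B cell markers were lower by sign in 4 of 5 genes, where 55.0% of all genes were lower. Their sums were 7.14 to 9.75 in ASO livers and 9.07 to 14.0 in saline livers. Cd79a, Cd22 and Cd79b had -0.51, 0.26 and -0.25, Pax5 was at the floor on 1 array, and Ms4a1, chosen after its values were seen, had -0.57 ± 0.16 (SE, limma adjusted p = 0.246). T and NK cell markers were lower in 6 of 10, with sums of 9.23 to 11.1 in ASO livers and 9.81 to 11.9 in saline livers. Among them Cd3e was at the floor on 6 arrays, Klrb1c, chosen after its values were seen, had -0.91 ± 0.36 (SE, 2 arrays at the floor), and Cd2, Cd3d and Cd4 had -0.02, 0.28 and -0.27. Cd2 was above 0, at up to 0.11, without any of ASO replicates 1 and 5 or saline replicates 3, 4 and 5.

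Neutrophil markers were lower in 3 of 7, with sums of 5.59 to 7.97 in ASO livers and 5.35 to 7.24 in saline livers. S100a9 and S100a8 had -0.19 and -0.32, while Ltf had 0.80 ± 0.32 and Elane, chosen after its values were seen, 0.74 ± 0.19 (SE). Endothelial markers were lower in 3 of 8, with sums of 46.6 to 158 in ASO livers and 63.8 to 122 in saline livers. Stab2 had 0.07 (-0.13 without ASO replicate 4 and -0.044 without saline replicate 4), Stab1 0.49 and Kdr -0.23 (0.29 without ASO replicate 2), and Cdh5, chosen after its values were seen, had 0.87 ± 0.28 (SE, 1 array at the floor). Hepatocyte markers, which define the tissue, were bright and lower in 3 of 8, with sums of 5146 to 6572 in ASO livers and 2649 to 5656 in saline livers, and Alb, Apoa1 and Ttr had 0.57, 0.50 and 0.41. Without saline replicate 1, the array with the low maximum, these 3 had 0.33, 0.27 and 0.16, and under quantile normalization 0.26, 0.22 and 0.025. The part of these cells in the differences of Rsad2, Irf7 and Usp18 was not tested.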

How the data were processed

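RNA of 10 mouse livers was labelled with biotin by the CodeLink Expression Assay protocol, per the labels. The authors deposited intensities per probe, linear and with array medians near 1, of which 74 to 377 per array were at or below 0. Software and background method: not given in the sources used here. The number of arrays limits the precision. Nothing in the labels says that the mice came from separate experiments, so p-values measure only the spread between these livers.

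Of 36227 probes, 139 with fewer than 3 values in a group were left out. Values under the 10th percentile of positive values were raised to it, log2 was taken, and ASO minus saline was fitted with limma 3.58.1 (lmFit, eBayes) in R 4.3.3 without covariates, two-sided, at an adjusted 0.05. A gene's probe was the one with the highest mean. Annotation gave 1 symbol to 21615 probes, several to 681 and none to 13931. Of the single-gene probes, 21487 were matched by Entrez ID to GRCm38.p6. The procedure was also run on simulated data with independent noise in each value. Such data hold no array-wide differences, so that run cannot speak to them, and no result here rests on it.

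The members and lists were chosen with earlier results of these data known. By the naming rule, up to 4 genes with the lowest p per pathway list and the 3 genes with the highest mean level per marker list were named. The 8 genes most like the members' mean were also named. Others with an unadjusted p under 0.05 in a list were added after their values were seen, as were Siglech, Pax5 and Cd3e for their values at the floor. Alternatives were quantile and cyclic loess normalization, no floor, a pseudocount of 0.5, array weights, robust eBayes with a trend, a fit restricted to probes above the median level, leaving out each array, and averaging a gene's probes. Figures were drawn with matplotlib 3.10.9.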

Additional observations from a re-analysis of the deposited data

Results flagged for a closer look

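In groups of 5 livers, a value was singled out where its gap to the nearest other value, divided by the group's range, exceeded Dixon's critical value of 0.71. Chance singles out about 1 in 20 groups, and here it was 12 of 157 (7.64%). Among the members it was a single value, Ifit2 in saline replicate 5, at -2.38, the floor. In the pathway lists these were Irf8 in ASO replicate 3 (0.30), Gvin1 in ASO replicate 2 (1.02) and Irf2 in saline replicate 4 (-1.99). In the marker lists they were C1qb in ASO replicate 2 (2.69), Kdr in ASO replicate 2 (1.52), Cox6a2 in ASO replicate 5 (2.04), Cd22 in ASO replicate 4 (1.31), Tcf4, Cd2 and Cd3d in saline replicate 1 (3.71, 0.64 and 0.28) and Klrb1c in saline replicate 4 (0.19), all log2 intensities.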

How the results depend on the processing

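Under up to 18 alternatives per gene, 141 values in all, no member reached an adjusted p under 0.05. Rsad2 stayed lower (-1.55 to -0.62, adjusted p 0.0960 to 0.369), as did Irf7 (-1.19 to -0.83, adjusted p 0.138 to 0.530), and Usp18 stayed higher (0.41 to 0.65, adjusted p 0.290 to 0.608). The count of members lower at an unadjusted p under 0.05 was 1 with only probes above the median level, which drops Rsad2, and 2 otherwise. Usp18, the single higher member, had an unadjusted p above 0.05 without any of ASO replicates 4 and 5 and saline replicates 4 and 5. The members' median ran from -0.27 to -0.07. The 23 probes past the adjusted threshold became 39 under cyclic loess, 7 with no floor, 43 with a pseudocount, 73 with only probes above the median level, 42 with trend and robust, and 0 to 16 without single arrays (0 without ASO replicate 3 or saline replicate 2). The cause was not tested. Pathway genes lower at an unadjusted p under 0.05, a count whose alternatives were chosen after seeing the data, were 11 to 21 without single arrays and 12 to 16 otherwise. Those higher, 3 in all, were 5 under quantile and under cyclic loess normalization, 1 with only probes above the median level, and 1 to 5 without single arrays. Signs turned in 16 of 79 named genes, and none of the 79 passed the adjusted threshold in the main fit. Not all of the 16 were near 0. Without ASO replicate 2, C1qb went from -0.31 to 0.32 and Kdr from -0.23 to 0.29. Isg15 was 0.0049 with array weights, Tcf4 0.080, 0.073 and 0.011 under quantile, cyclic loess and array weights, Cd2 0.073 and 0.047 and Sparc 0.098 and 0.064 under quantile and cyclic loess, and Yipf2 0.0044 under quantile. With the mean of all probes Ifnar1 was -0.27 and Trim25 -0.022. Without single arrays the ranges were -0.10 to 0.054 for Isg15, -0.0056 to 0.30 for Stat2, -0.0075 to 0.14 for Jak2, -0.57 to 0.32 for C1qb, -0.24 to 0.10 for Tcf4, -0.13 to 0.11 for Cd2, -0.13 to 0.29 for Stab2, -0.063 to 0.31 for Zfp36, -0.33 to 0.046 for Yipf2, -0.27 to 0.063 for Sparc, -0.62 to 0.064 for C1qc, -0.64 to 0.036 for Cd5l, -0.053 to 0.25 for Cox6a2 and -0.47 to 0.29 for Kdr. No paired analysis was possible because the labels give no number shared between the groups. Signal over background, unknown here, limits Rsad2, Ifit2 and Isg15 among the members, and dim pathway genes such as Oas1a.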
